A study of Mus musculus with 33 samples.

Results

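Mouse embryonic fibroblasts that carried both Thy1 and SSEA1 at the cell surface 2 and 4 days into reprogramming under Dppa2 and Dppa4 are described here by polyA RNA-seq. The members are the Dppa2/4 Thy1+SSEA1+ libraries of day 2 and day 4, 2 of the 30 libraries used from the deposited table. They were chosen by their labels, with earlier results of these data known. Each was set against libraries of the same arm and day. These were Thy1+SSEA1- and Thy1-SSEA1- on day 2, and Thy1-SSEA1- on day 4. Every group held 1 library, and no source used here says how many cultures or embryos each came from. The library labelled day 4 Thy1+SSEA1- was left out of these comparisons because it held Dppa2 at 0.354 FPKM, the level of the arm without Dppa2/4, where days 2 and 4 gave 0.256 to 0.527. No Thy1+SSEA1+ library of that control arm was analysed here, so nothing below separates Dppa2/4 from the gate itself.

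All cells shared one genotype, Col1a1-OSKM+/-; Rosa26-rtTA+/-; Oct4-GFP+/-. A doxycycline-driven cassette of Oct4 (Pou5f1), Sox2, Klf4 and Myc sits in the Col1a1 locus of such cells, the reverse tetracycline activator is made from Rosa26, and a GFP reporter reads the Oct4 gene. They were primary fibroblasts of 14-15 dpc embryos, transduced with lentivirus and kept in medium with serum, LIF and 1 µg/ml doxycycline. The Dppa2/4 arm overexpressed Dppa2 and Dppa4, a pair of chromatin-bound proteins of early embryos and pluripotent cells. Reads of Pou5f1, Sox2, Klf4, Myc, Dppa2 and Dppa4 sum the introduced copy and the cell's own gene.

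Thy1 is a surface glycoprotein of fibroblasts that reprogramming cells lose early. SSEA1 is a fucosylated sugar epitope of mouse embryonic stem cells that they gain next. Cells that carry both hold an antigen of the starting cells beside one of the later gates, and their place in that order was not tested. Over the same days fibroblasts shut down matrix and mesenchymal genes and switch on epithelial junction genes, a mesenchymal-to-epithelial transition, before most of the pluripotency network is active. The E-cadherin gene Cdh1 marks that switch, and Snai and Zeb proteins repress it by binding E-box motifs in epithelial promoters.

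Values are FPKM, fragments scaled to transcript length and library size, and differences are on the log2(FPKM + 1) scale, which understates the change of low genes. The implied depth of the 5 libraries was 22.4 to 28.2 M fragments, and 13230 to 13698 genes reached 1 FPKM in them. A gene was tested when it reached 1 FPKM in at least 2 of the 5 libraries, which left 14251 genes, 12451 of them protein coding. With 1 library per gate a single pair carries no test, and a gene is called higher or lower there when it differed by 2-fold or more on FPKM + 1, a difference of 1 on the log2 scale, with at least 5 FPKM in the higher library. The same gates were compared again on day 4 with no library in common, the only repeat of that comparison. A limma fit over the 5 libraries with day as a block left 1 residual degree of freedom and gave the adjusted p-values, all two-sided. Its residual held only how far the difference between Thy1+SSEA1+ and Thy1-SSEA1- cells changed from day 2 to day 4. That change may be technical or real, and the standard errors (SE) and p-values count it as noise beside a spread shared over genes. They do not measure variation between replicate libraries of a gate, which were lacking. The same fit on protein-coding genes alone was not planned, and its p-values are not an independent second test.

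The gate was checked against the genes of its antigens. Thy1 mRNA was 114 FPKM in Thy1+SSEA1+ cells of day 2, 195 in Thy1+SSEA1- and 230 in Thy1-SSEA1-. On day 4 it was 55.0 in Thy1+SSEA1+ and 77.8 in Thy1-SSEA1-. The mRNA thus ran against the Thy1 label within each day, while the sort read the surface protein. Fut9, the fucosyltransferase that makes the SSEA1 epitope, was 4.91 FPKM in Thy1+SSEA1+ cells on day 2 against 1.29 in Thy1+SSEA1- and 0.293 in Thy1-SSEA1-, and 1.84 against 0.447 on day 4. Both Thy1+SSEA1+ libraries lay above the other 3, with a mean difference from Thy1-SSEA1- of 1.58 (SE 0.43; limma adjusted p = 0.133, and 0.0342 with protein-coding genes alone). Fut4, the other enzyme of that step, stood at 3.53, 3.11 and 2.07 FPKM on day 2 in the same order, and at 1.59 and 1.77 on day 4.

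The introduced factors stood more than 2-fold apart between the gates on day 2 and less than 2-fold apart on day 4. Dppa2 was 612 FPKM in Thy1+SSEA1+ cells of day 2, 599 in Thy1+SSEA1- and 81.8 in Thy1-SSEA1-. On day 4 it was 92.4 in Thy1+SSEA1+ and 111 in Thy1-SSEA1-. Pou5f1 read 522, 327 and 75.8 FPKM in the 3 gates of day 2, then 186 and 251 on day 4. All 6 factors were at least 2-fold higher in Thy1+SSEA1+ than in Thy1-SSEA1- cells on day 2, where 10.1% of all genes tested were higher, and none of the 6 was on day 4, where 1.66% were. Their median difference was 2.61 on day 2 and -0.085 on day 4. The low factor level of the day 2 Thy1-SSEA1- library stands beside every day 2 difference from it that follows, and its part in them was not tested. In the day 4 pair each factor stood within 2-fold of its level in the other gate.

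**Figure D1:**
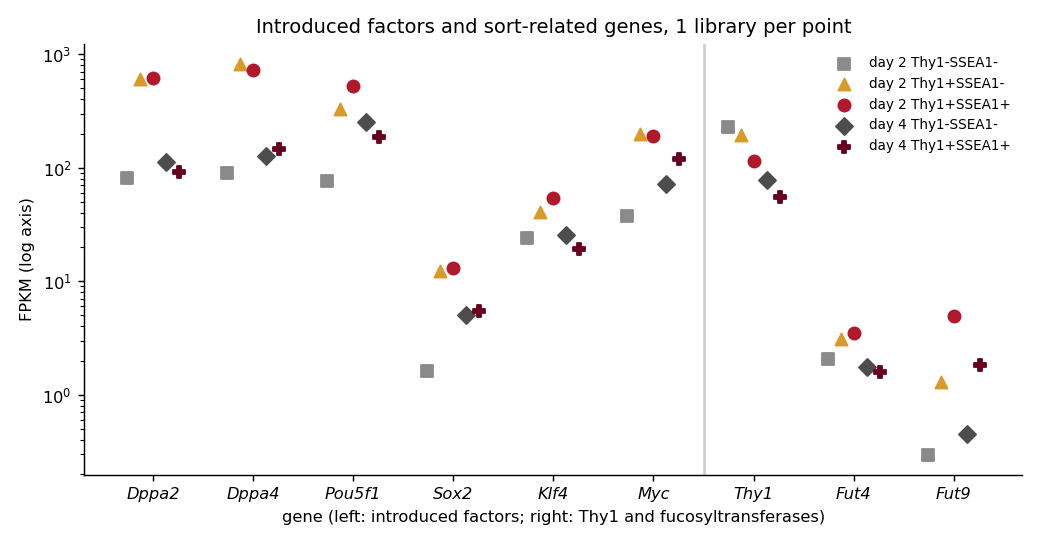
FPKM (log axis) of the 6 introduced factors, Thy1, Fut4 and Fut9 in the 5 libraries, 1 point per library. On day 2 the Thy1-SSEA1- square lies below both Thy1+ gates for all 6 factors, with Dppa2 at 81.8 against 599 and 612 FPKM, while Thy1 itself is highest there at 230 FPKM.

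Across all protein-coding genes the Thy1+SSEA1+ cells of day 2 were closest to Thy1+SSEA1- cells of the same day. Pearson's r of their log2 values was 0.989 over 12451 genes, the highest among the other 29 libraries. The Thy1+SSEA1+ cells of day 4 came next at 0.965, then Thy1-SSEA1+ cells of day 8 at 0.944. The Thy1-SSEA1- cells of the same day stood at 0.839, rank 24 of 29, and those of day 4 at 0.935, rank 4. The Thy1+SSEA1+ cells of day 4 were closest to Thy1-SSEA1+ cells of day 8, at 0.974, and stood at 0.947, rank 5, with Thy1-SSEA1- cells of their own day. These are correlations across genes, which share library, depth and expression level and are not independent replicates.

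Against Thy1-SSEA1- cells, 1256 protein-coding genes were higher and 1799 lower in Thy1+SSEA1+ cells on day 2, 10.1% and 14.4% of those tested. On day 4 there were 112 higher and 783 lower, 0.9% and 6.29%. The median absolute difference was 0.62 on day 2 and 0.34 on day 4. Both days called 84 genes higher and 618 lower, 0.675% and 4.96% of protein-coding genes. The 84 were 6.69% of those higher on day 2 and 75.0% of those higher on day 4, and the 618 were 34.4% and 78.9%. Only 6 genes higher on day 2 were lower on day 4, and 1 lower on day 2 was higher on day 4. Across genes the differences of the days correlated at 0.770. The limma fit over all genes called 21 higher and 195 lower, 0.147% and 1.37%. Run on protein-coding genes alone, which was not planned, it called 434 and 1149, 3.49% and 9.23%. With a mean of at least 5 FPKM as the filter, the fit over all genes called 0 either way (746 and 1463 genes at an unadjusted p under 0.05). The levels in each library are therefore given first throughout.

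**Figure D2:**
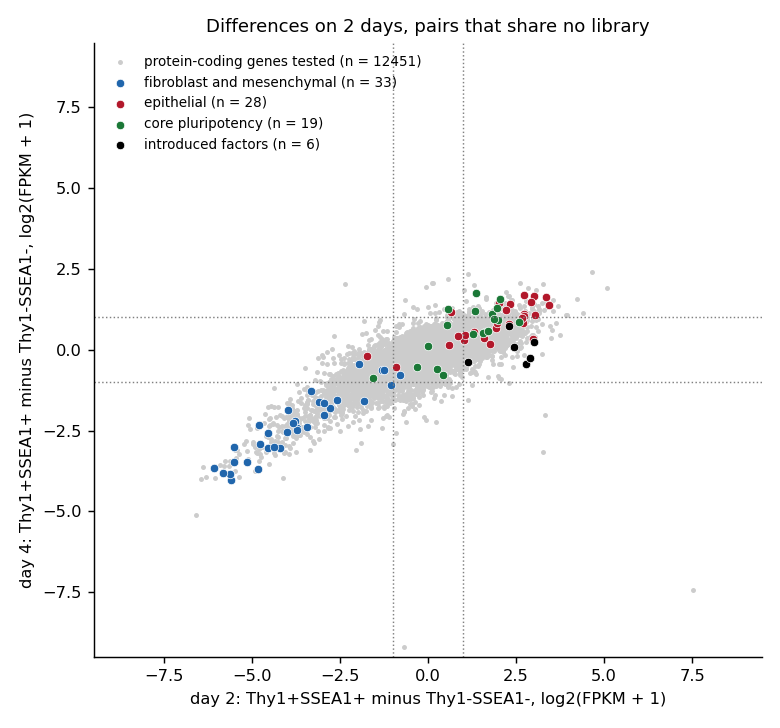
Difference between Thy1+SSEA1+ and Thy1-SSEA1- cells on log2(FPKM + 1) for 12451 protein-coding genes, day 2 on the x axis and day 4 on the y axis, with 4 gene lists coloured and dotted lines at 2-fold. Fibroblast genes (blue) lie at the lower left on both days, epithelial genes (red) at the upper right, and the 6 introduced factors (black) are high on day 2 and near 0 on day 4.

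Of the 26 lists, the fibroblast and mesenchymal genes were the lowest in Thy1+SSEA1+ cells on both days. In bulk libraries, fewer cells of a type and less RNA per cell cannot be told apart. Col1a1, the main chain of type I collagen (ENSMUSG00000001506, chr11:94936224-94953042, mm10), was 42.2 FPKM in Thy1+SSEA1+ cells of day 2, 84.6 in Thy1+SSEA1- and 2099 in Thy1-SSEA1-. On day 4 it was 38.3 and 635. Both Thy1+SSEA1+ libraries lay below the other 3, with a mean difference from Thy1-SSEA1- of -4.81 (SE 0.41, limma adjusted p = 0.0251). One allele of this locus carries the reprogramming cassette. Bgn, a small matrix proteoglycan, ran the same way, at 65.1, 139 and 3291 FPKM on day 2 and 72.9 and 1058 on day 4 (limma adjusted p = 0.0318). Postn, the matrix protein periostin, read 8.93, 18.8 and 672 FPKM, then 14.4 and 194 (adjusted p = 0.0398, limma). Lum, the collagen-binding lumican, read 2.95, 3.45 and 226 FPKM, then 3.71 and 64.6 (adjusted p = 0.0373, limma). For Bgn and Postn too, no Thy1+SSEA1+ value reached any value of the other gates, while for Lum the day 4 value lay just above that of day 2 Thy1+SSEA1- cells.

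All 33 fibroblast genes of the list were tested. On day 2, 32 were lower in Thy1+SSEA1+ than in Thy1-SSEA1- cells and 0 were higher, beside 14.5% lower among all genes tested, with a median difference of -3.84 against 0.01 over all genes. On day 4, 29 were lower and 0 higher, beside 6.43%, with a median of -2.38 against -0.01. Those 29 were lower on both days, as were 4.83% of all genes tested. The limma fit called 20 of the 33 lower, beside 1.37% of all genes tested. It called 30 when it ran on protein-coding genes alone, beside 9.23% of those. Cdh2, the N-cadherin gene, was the 1 member short of 2-fold on day 2, at 14.5 FPKM against 26.1.

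The transcription factors of the mesenchymal state, described here after their values were seen, were lower in Thy1+SSEA1+ than in Thy1-SSEA1- cells on both days. Against Thy1+SSEA1- cells of day 2 none of them was called lower by the fold rule, which needs 5 FPKM in the higher library. The median difference of the 33 genes from that gate was -0.60. Snai1 was 1.55 FPKM on day 2 against 18.9 in Thy1-SSEA1- cells, and 1.57 against 7.08 on day 4. Snai2 stood at 1.86 against 30.3 FPKM and then 1.98 against 14.6 (limma adjusted p = 0.0429). Zeb1 stood at 4.87 against 39.3 and then 5.06 against 20.3, and Zeb2 at 2.19 against 18.3 and then 2.03 against 7.86 FPKM. Twist1 differed less, at 17.2 against 42.7 and 12.1 against 19.5. Vim, the intermediate filament of fibroblasts, was the highest of the 33 genes in the gate, at 1176 FPKM on day 2 and 2637 on day 4, against 4590 and 3593 in Thy1-SSEA1- cells.

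Within day 2, SSEA1 split the fibroblast genes further. Each of the 33 genes was ordered Thy1+SSEA1+ below Thy1+SSEA1- below Thy1-SSEA1-, an order held by 25.2% of protein-coding genes tested. The gap between the Thy1+ gates was small, with a median of -0.60. Only 5 genes, Acta2, Tagln, Bgn, Col3a1 and Col6a3, were lower by 2-fold on FPKM + 1, where 1.54% of all genes were, and Col1a1 lay just short of it at -0.99, as did Postn. Acta2 and Tagln encode contractile proteins of activated fibroblasts and smooth muscle. Acta2 was 87.8 FPKM with SSEA1 and 199 without, and Tagln 46.9 and 98.0. In 26 of 33 genes both Thy1+SSEA1+ libraries lay below the other 3, an arrangement shared by 12.5% of protein-coding genes. Between day 2 and day 4 of the gate their median difference was 0.03. Their summed level was 2631 FPKM on day 2 and 4225 on day 4, of which Vim alone made up 1176 and 2637.

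**Figure D3:**
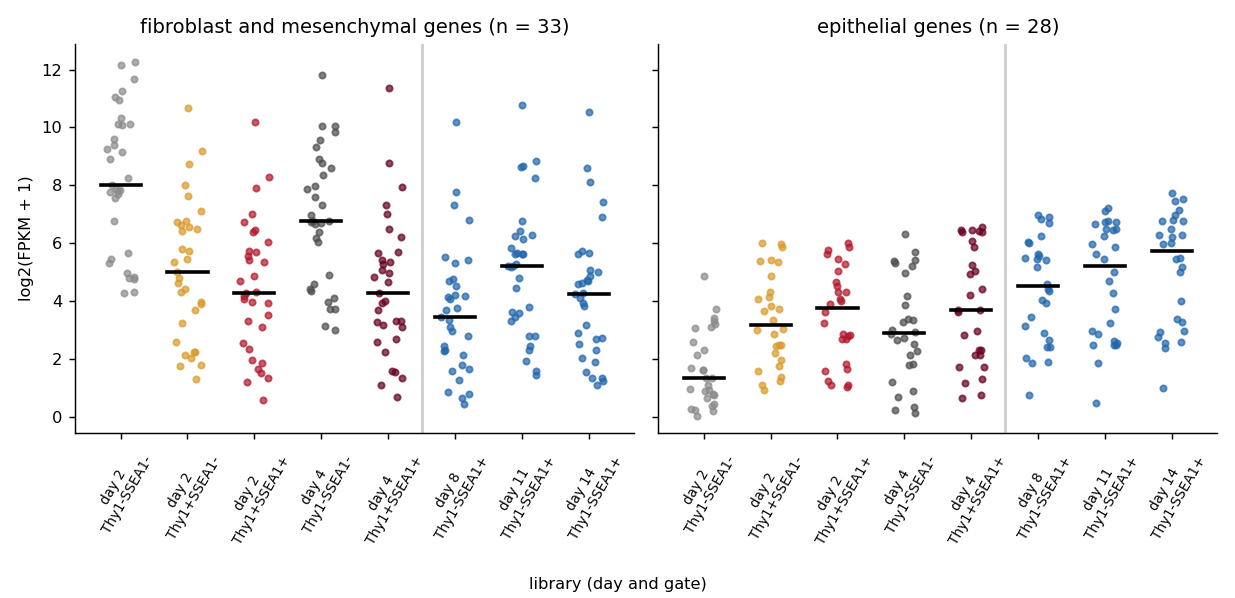
log2(FPKM + 1) of 33 fibroblast and mesenchymal genes (left) and 28 epithelial genes (right) in the 5 early libraries and, right of the grey line, the Thy1-SSEA1+ libraries of days 8, 11 and 14. Each point is 1 gene and the black line is the median over genes. On day 2 the fibroblast median is lowest in Thy1+SSEA1+ and highest in Thy1-SSEA1- cells, and the epithelial median has the opposite order.

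Epithelial genes were higher in Thy1+SSEA1+ cells. Cdh1, which encodes E-cadherin (ENSMUSG00000000303, chr8:106603351-106670246, mm10), was 15.1 FPKM in Thy1+SSEA1+ cells of day 2, 6.28 in Thy1+SSEA1- and 0.591 in Thy1-SSEA1-. On day 4 it was 31.8 and 9.49. Both Thy1+SSEA1+ values lay above the other 3, with a mean difference from Thy1-SSEA1- of 2.49 (SE 0.48; limma adjusted p = 0.0789, and 0.00219 with protein-coding genes alone). Epcam, an epithelial adhesion molecule (ENSMUSG00000045394, chr17:87635979-87651129, mm10), read 15.9, 9.21 and 1.58 FPKM on day 2 and 57.4 and 17.0 on day 4 (limma adjusted p = 0.0599, and 0.00151 with protein-coding genes alone). Its day 2 value lay under the 17.0 FPKM of day 4 Thy1-SSEA1- cells, so the gates overlapped across days but not within them. The tight junction claudin Cldn4 read 19.07, 13.2 and 0.869 FPKM, then 37.3 and 13.6. Cldn6 read 24.3, 16.7 and 2.12 FPKM, then 30.1 and 8.72. For both claudins the Thy1+SSEA1+ libraries lay above the other 3.

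Of the 34 epithelial genes listed, 28 were tested. On day 2, 19 were higher and 1 lower than in Thy1-SSEA1- cells, beside 10.1% higher among all genes tested, with a median difference of 2.11. On day 4, 10 were higher and 0 lower, beside 1.66%, with a median of 0.83. Those 10 were higher on both days, as were 0.821% of all genes tested: Cdh1, Epcam, Cldn4, Cldn6, the simple-epithelial keratins Krt8, Krt18 and Krt19, the desmosomal plaque gene Pkp3, the surface protease gene St14 and the transcription factor gene Elf3. Krt8 was 48.6 FPKM against 5.02 on day 2 and 87.5 against 41.3 on day 4. F11r, a junctional adhesion molecule, was the 1 lower on day 2, at 2.17 against 9.67 FPKM. The limma fit called 0 of the 28 over all genes tested, and 17 higher when run on protein-coding genes alone, beside 3.49%. The 6 members not tested, all at or under 1.82 FPKM in the 5 libraries, included the epithelial splicing regulator Esrp1.

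Within day 2, 20 of 28 epithelial genes were ordered Thy1+SSEA1+ above Thy1+SSEA1- above Thy1-SSEA1-, an order held by 24.7% of protein-coding genes. The gap to Thy1+SSEA1- cells was small, with a median of 0.16, and Cdh1 alone passed 2-fold, where 0.695% of all genes tested did. In 10 of 28 both Thy1+SSEA1+ libraries lay above the other 3, beside 8.39% of protein-coding genes. The day 4 Thy1+SSEA1+ library was the highest of the 5 for 17 of 28, beside 20.5% of protein-coding genes.

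Upstream sequences of 3 of these epithelial genes are printed because the E-box bound by Snai and Zeb proteins can be read in them. Each is the 250 bases before the gene's start in RefSeq's table for GRCm38.p6, the mm10 build, written in the direction of transcription. Capitals mark CACCTG or CAGGTG, the same 6-base motif read on either strand. Epcam lies at chr17:87635729-87635978 on the plus strand, Cldn4 at chr5:134946935-134947184 and Krt8 at chr15:102004343-102004592, both on the minus strand.
Epcam: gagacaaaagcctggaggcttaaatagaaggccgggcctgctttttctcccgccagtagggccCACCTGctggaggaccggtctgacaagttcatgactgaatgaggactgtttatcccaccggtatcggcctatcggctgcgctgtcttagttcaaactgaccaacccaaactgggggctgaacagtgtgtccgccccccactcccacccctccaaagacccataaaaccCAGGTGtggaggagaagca
Cldn4: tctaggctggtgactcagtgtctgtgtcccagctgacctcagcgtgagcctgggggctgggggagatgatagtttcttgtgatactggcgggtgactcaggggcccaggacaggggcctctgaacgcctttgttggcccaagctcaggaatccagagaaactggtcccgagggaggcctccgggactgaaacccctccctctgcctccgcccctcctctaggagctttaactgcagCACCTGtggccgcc
Krt8: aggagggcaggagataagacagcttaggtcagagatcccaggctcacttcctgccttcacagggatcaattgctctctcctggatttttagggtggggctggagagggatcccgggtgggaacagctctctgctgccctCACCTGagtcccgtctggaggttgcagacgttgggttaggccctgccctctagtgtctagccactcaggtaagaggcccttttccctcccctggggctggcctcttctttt
The Epcam window holds the motif 187 and 19 bases before the start, the Cldn4 window 14 bases before it and the Krt8 window 111 bases before it. Of the 34 epithelial genes, 21 are in the table and 14 of those, 66.7%, hold the motif in this window. Of the 10 higher on both days 6 are in the table and all 6 hold it. Among the fibroblast genes 1 of 20, 5%, does, and among all 27025 genes with an entry 19.4% do. The 10 were chosen from these same data, so their share is no test. A match describes the letters only, and binding was not measured. Whether Snai or Zeb levels bear on these genes was not tested.

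Pluripotency genes were detected early in this gate but unevenly. Nanog, a core factor of the network, was 3.20 FPKM in Thy1+SSEA1+ cells of day 2, 1.97 in Thy1+SSEA1- and 0.646 in Thy1-SSEA1-, and on day 4 it was 50.5 and 14.1. It was highest in Thy1+SSEA1+ cells on either day, with a mean difference of 1.56 (SE 0.33; limma adjusted p = 0.0914, and 0.0132 with protein-coding genes alone). Lefty1 and Lefty2 encode secreted Nodal antagonists. Lefty1 read 12.03, 10.7 and 2.36 FPKM, then 51.1 and 20.1, and Lefty2 read 6.32, 5.46 and 0.793, then 29.7 and 9.25. L1td1, an RNA-binding protein of stem cells, read 70.1, 52.7 and 10.8 FPKM, then 87.0 and 47.2. In each of these 4 genes the gate without either antigen was the lowest of its day.

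Of 34 core pluripotency genes 19 were tested. On day 2, 4 were higher and 1, Tbx3, lower than in Thy1-SSEA1- cells, beside 10.1% and 14.5%, with a median difference of 1.35. On day 4, 5 were higher and 0 lower, beside 1.66%, with a median of 0.75. Lefty1 and Lefty2 were higher on both days. The limma fit called 0 of the 19 over all genes. On protein-coding genes alone it called 9 higher and 1 lower, beside 3.49% and 9.23%. The de novo methylation cofactor Dnmt3l, at 1.87 FPKM, was lower than the 6.12 of Thy1+SSEA1- cells on day 2. Among the 15 genes not tested, looked up after the data were seen, was Tdgf1, a Nodal coreceptor at 6.27 FPKM in Thy1+SSEA1+ cells of day 4 and at most 0.897 in the other 4 libraries. Esrrb stood at 0.146 and 0.524 FPKM in the Thy1+SSEA1+ libraries, and Zfp42 at 0 and 0.208.

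Some germline genes, 7 of the 14 tested, were higher on day 2. Tex19.1, which acts in germ cells and placenta, was 59.6 FPKM in Thy1+SSEA1+ cells of day 2, 48.0 in Thy1+SSEA1- and 5.20 in Thy1-SSEA1-, then 42.1 and 17.6 on day 4. Rec8, a cohesin subunit of meiosis, read 44.8, 29.1 and 2.67 FPKM, then 57.2 and 31.5. Taf7l, a germ cell transcription cofactor, read 21.4, 19.9 and 2.99, then 12.7 and 9.68 FPKM. Piwil2, a piRNA-binding protein, read 5.999, 4.001 and 0.632, then 3.33 and 2.06 FPKM. Of 34 germline genes 14 were tested, and those 7 were higher and 0 lower on day 2 (median 1.37), beside 10.1% higher among all genes tested. On day 4, 1, Tex19.1, was higher (median 0.43), beside 1.66%. Limma called 0 over all genes and 3 higher on protein-coding genes alone, beside 3.49% of those tested. The Thy1-SSEA1- library of day 2 was also the one with least Dppa2 and Dppa4, at 81.8 and 89.9 FPKM. In the arm without them Tex19.1 stood at 0.361 to 0.591 FPKM on days 2 and 4. The part of Dppa2 and Dppa4 in these differences was not tested. Of the 2-cell-stage genes only 4 of 30 were tested, and the deubiquitinase gene Dub3 alone was higher on day 2, at 6.72 FPKM against 0.285, and it read 1.498 against 0.431 on day 4. Dub3 has near-identical copies between which its reads may be split.

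Genes of TGF-beta and BMP signalling were lower alongside the matrix genes. TGF-beta ligands drive matrix synthesis and the mesenchymal state of fibroblasts. Inhba, the activin A subunit and a ligand, was 4.55 FPKM in Thy1+SSEA1+ cells of day 2, 8.61 in Thy1+SSEA1- and 74.8 in Thy1-SSEA1-, and on day 4 1.43 and 20.9 (limma adjusted p = 0.0316). Ltbp2, a matrix protein of the latent TGF-beta binding family, read 4.48, 6.64 and 161 FPKM, then 3.46 and 56.8 (limma adjusted p = 0.0264). The ligand Tgfb2 read 1.62, 1.74 and 47.9 FPKM, then 2.08 and 11.4 (limma adjusted p = 0.0724). Inhba and Ltbp2 had both Thy1+SSEA1+ libraries below the other 3, and Tgfb2 had them below both Thy1-SSEA1- libraries. Of 21 members tested 15 were lower and 1 higher on day 2, beside 14.5% and 10.1%, with a median of -1.84. On day 4, 6 were lower and 0 higher, beside 6.43%, with a median of -0.95. The 1 higher was the ligand Bmp7, at 9.65 FPKM against 1.12, and it read 6.58 against 3.69 on day 4. Limma called 3 lower over all genes, beside 1.37%. On protein-coding genes alone it called 13 lower and 1 higher, beside 9.23% and 3.49%, and the 1 higher is near that share.

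Some cell cycle genes, 14 of 26 for mitosis and 11 of 28 for replication, were higher on day 2 by the fold rule, and none was on day 4, beside 10.1% and 1.66% higher among all genes tested. Cdca8, a subunit of the chromosomal passenger complex, was 124 FPKM in Thy1+SSEA1+ cells of day 2, 120 in Thy1+SSEA1- and 30.1 in Thy1-SSEA1-, then 154 and 83.0. Cdc20, an activator of the anaphase-promoting complex, read 212, 220 and 61.3 FPKM, then 275 and 169. The mitosis medians were 1.04 on day 2 and 0.30 on day 4. Limma called 0 over all genes and 7 higher on protein-coding genes alone, beside 3.49% of those tested. The replication medians were 0.81 and 0.48, and limma called 0 and 3, beside the same share. Pola1, the catalytic subunit of DNA polymerase alpha, read 113, 96.2 and 24.5 FPKM, then 46.9 and 37.2. The median gap between the Thy1+ gates was 0.16 for mitosis and 0.06 for replication. Most mitosis genes were highest in the day 4 Thy1+SSEA1+ library, 23 of 26 beside 20.5% of protein-coding genes.

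Interferon, p53 and AP-1 genes were lower on day 2 in part, read here beside 14.5% lower and 10.1% higher among all genes tested on day 2 and 6.43% lower on day 4. Ifit1, an interferon-induced antiviral gene, was 1.01 FPKM in Thy1+SSEA1+ cells of day 2, 1.65 in Thy1+SSEA1- and 20.9 in Thy1-SSEA1-, then 0.664 and 2.70 on day 4. Of 24 interferon genes tested 9 were lower and 1 higher on day 2 (median -1.03) and 0 passed the fold on day 4 (median -0.37). Fas, a death receptor and p53 target, read 3.77, 7.61 and 44.9 FPKM, then 5.33 and 15.2. Mdm2, the p53 ubiquitin ligase that p53 itself induces, read 65.5, 71.4 and 184, then 43.6 and 114. Of 21 p53 and senescence genes 7 were lower on day 2 (median -0.74) and 2, Fas and Mdm2, on both days. Of 19 AP-1 and immediate early genes 6 were lower and 2 higher on day 2 (median -0.65), the 2 higher being near the background share, and Fosl2 alone was lower on both days, at 20.1 against 103 FPKM and 17.0 against 41.3. Limma called 0 genes of these 3 lists over all genes. On protein-coding genes alone it called 5, 4 and 1 lower, beside 9.23% of those tested. The 1 AP-1 gene of 19 is not above that share.

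Surface antigens other than those sorted differed in either direction. Itga4, an integrin chain, was 0.609 FPKM in Thy1+SSEA1+ cells of day 2 against 7.56 in Thy1-SSEA1-, and 0.163 against 3.14 on day 4. Alpl, the tissue-nonspecific alkaline phosphatase of stem cells, was 44.6 against 5.55 FPKM and 36.5 against 17.5. Of 22 such genes 4 were higher and 6 lower on day 2, beside 10.1% and 14.5% of all genes tested. On day 4, 3 were higher and 2 lower, beside 1.66% and 6.43%, and the 2 lower are near that share. The 3 higher on both days were Cdh1, Epcam and Alpl. Glycolysis, heat shock and chromatin modifier genes had medians of 0.22, 0.58 and 0.58 on day 2 and 0.33, 0.00 and -0.09 on day 4. Against Thy1+SSEA1- cells 30 of 32 chromatin modifier genes were above 0, with a median of 0.37 against -0.01 over all genes tested. Of the 32, 0 passed the fold, near the 0.695% higher and 1.54% lower among all genes tested. Slc2a3, a neuronal and embryonic glucose transporter, was 38.2 FPKM against 10.6 on day 2 and 149 against 143 on day 4.

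Markers of other cell types were measured for cells that a fibroblast culture might hold. The summed level of 16 immune markers, 6 of which were tested, was 19.0 and 11.6 FPKM in the Thy1+SSEA1+ libraries, and 26.7 and 19.0 in Thy1-SSEA1-. Ptprc, the pan-leukocyte antigen, was at most 0.075 FPKM, and Cd3e of T cells was listed at 0 in all 5 libraries. The endothelial list split: the claudin Cldn5 was 16.4 FPKM against 1.15 and 14.7 against 5.88, while the receptor Flt1 was 3.09 against 19.8 and 0.578 against 5.55. Sfn, a keratinocyte 14-3-3 protein, was 26.6 against 2.14 and 17.4 against 6.94 FPKM. Krt7 and Hand1 of trophoblast read 13.2 against 2.21 and 13.1 against 1.24 on day 2, then 16.6 against 8.81 and 9.37 against 5.41. Thy1+SSEA1- cells of day 2 stood close to Thy1+SSEA1+ cells in these lists. The median differences from them were 0.003 over 6 endothelial, 0.01 over 4 keratinocyte and 0.048 over 4 trophoblast markers tested. Of these, 0 passed the fold, near the 0.695% higher and 1.54% lower among all genes tested. Cldn5, Krt7 and Hand1 were at most 0.383 FPKM in the control arm of days 2 and 4. The part of any contaminating cells in these values was not tested.

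**Figure D4:**
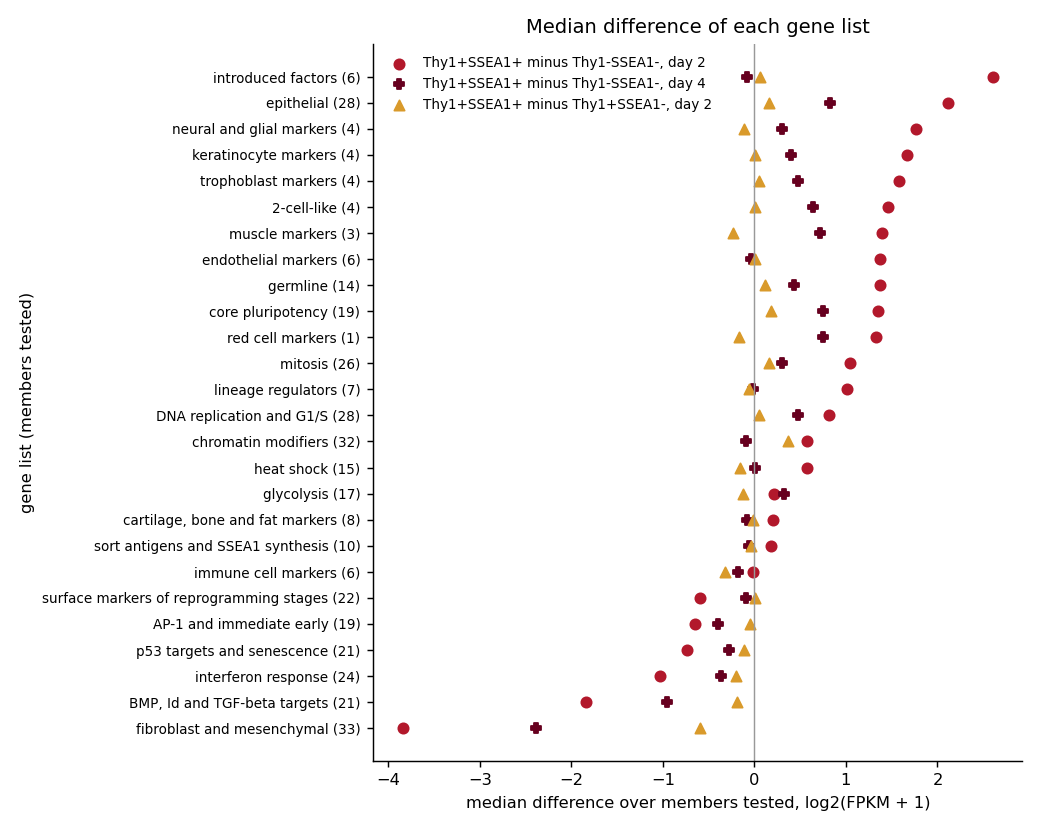
Median difference of each of 26 gene lists on log2(FPKM + 1), Thy1+SSEA1+ minus Thy1-SSEA1- on day 2 (circles) and day 4 (crosses) and Thy1+SSEA1+ minus Thy1+SSEA1- on day 2 (triangles), with the number of members tested in brackets. Fibroblast genes reach -3.84 and epithelial genes 2.11 on day 2, their crosses lie nearer 0, and every triangle lies between -0.60 and 0.37.

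Over all protein-coding genes, list members included, those furthest above Thy1-SSEA1- cells on both days were Fam25c, Spink10, Nefl, Avil, 1600029D21Rik, Aldh3a1, Apoc1, Trf, Cdh1 and Slc7a3. Fam25c was 60.1 FPKM in Thy1+SSEA1+ cells of day 2, 45.9 in Thy1+SSEA1- and 1.44 in Thy1-SSEA1-, then 125 and 22.6 on day 4, and 0.182 to 0.582 in the control arm of those days. Apoc1, an apolipoprotein, read 92.5, 81.5 and 5.10 FPKM, then 98.1 and 46.3, and at most 0.997 in the control arm. Trf, the iron carrier transferrin, read 30.9, 32.4 and 1.13 FPKM, then 23.6 and 10.6, and at most 0.236 in the control arm. These control values are from Thy1+SSEA1- and Thy1-SSEA1- libraries. Nefl, the light neurofilament chain, read 100, 69.4 and 4.43 FPKM, then 38.0 and 12.2. Slc7a3, a cationic amino acid transporter, read 213, 173 and 24.5, then 178 and 49.0 FPKM, with a mean difference of 2.46 (SE 0.35), and was the 1 gene of the 10 that limma called over all genes (adjusted p = 0.0473).

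Furthest below were Il1rl1, Mcpt8, Serpina3n, Mmp13, Mmp3, Postn, Lum, Col1a1, Bgn and Gzme, and limma called all 10. Both sets of 10 were picked by these same differences, so neither the calls nor the levels are a further test. Postn, Lum, Col1a1 and Bgn belong to the fibroblast list described above. Il1rl1, the receptor for interleukin 33, was 6.31 FPKM in Thy1+SSEA1+ cells of day 2, 15.4 in Thy1+SSEA1- and 715 in Thy1-SSEA1-, then 2.60 and 123, a mean difference of -5.86 (SE 0.41, limma adjusted p = 0.0185). The collagenase Mmp13 read 2.33, 3.40 and 220 FPKM, then 4.69 and 88.3, and the stromelysin Mmp3 read 12.97, 23.5 and 1177, then 28.0 and 355. Mcpt8 and Gzme are serine protease genes known from basophils and killer lymphocytes. Mcpt8 read 3.95, 6.51 and 437 FPKM, then 8.32 and 148, and Gzme 1.14, 2.34 and 127, then 4.26 and 61.1. In all 5 of these genes both Thy1+SSEA1+ libraries lay far below either Thy1-SSEA1- library.

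Against Thy1+SSEA1- cells of day 2, which were sorted apart from them by SSEA1 alone, few genes differed. The rule called 26 protein-coding genes higher and 54 lower, 0.209% and 0.434% of those tested, and the median absolute difference was 0.15. Over all genes it called 99 and 220, of which 51 and 120 were RNAs under 200 bases. The limma contrast called 8 higher and 3 lower, 0.0561% and 0.0211%, with the lone Thy1+SSEA1- library assumed to vary like the others. Genes on the higher side were led by the transcription factor Mitf, at 18.7 FPKM against 0.561, but Mitf was 0.305 in the Thy1+SSEA1+ library of day 4. Huwe1, a ubiquitin ligase, was 187 against 80.5 FPKM, with 201 in Thy1-SSEA1- cells, then 55.4 and 236 on day 4. On day 4 both genes thus stood below Thy1-SSEA1- cells, where Mitf was 1.39. On the lower side, the small heat shock protein Cryab was 270 against 878 FPKM, the mesothelial antigen Msln 1.27 against 6.27 and the focal adhesion protein Zyx 21.8 against 70.0. No second pair of these gates was used, so none of these values has a repeat.

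Few genes passed the fold against both other gates of day 2 and against Thy1-SSEA1- cells on day 4. Higher by 2-fold in all 3 differences were 2 protein-coding genes, 0.0161% of those tested. They were Cdh1 and Aim2, a cytosolic DNA sensor, which read 9.87, 3.75 and 1.59 FPKM on day 2 and 7.13 and 2.32 on day 4. Lower in all 3 were 31, 0.249%. Their leading 10 were Pmp22, Efemp1, Lsp1, Tnc, Col6a3, Fbln5, Spp1, Mgp, Serpinf1 and Ifi27l1, of which Tnc, Col6a3, Fbln5, Mgp and Spp1 encode matrix proteins. Tnc, the matrix glycoprotein tenascin C, read 15.6, 44.3 and 593 FPKM, then 22.5 and 204 (limma adjusted p = 0.0398 against Thy1-SSEA1-). Spp1, osteopontin, read 190, 465 and 9604, then 341 and 4167 FPKM (limma adjusted p = 0.0373 against Thy1-SSEA1-). The day 2 differences share the Thy1+SSEA1+ library and are not independent.

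Between day 2 and day 4 within the gate, a comparison added after the data were seen, 220 protein-coding genes were higher and 362 lower, 1.77% and 2.91%. Trh, the thyrotropin-releasing hormone gene, was 0.174 FPKM on day 2 and 16.8 on day 4, and Nanog was 3.20 and 50.5. Ifitm1, an interferon-induced membrane protein, was 18.2 and 315 FPKM, and it was 303 in Thy1-SSEA1- cells of day 4. Trh and Nanog stood at 3.24 and 14.1 there, below the Thy1+SSEA1+ values. Lower on day 4 were Boll, a germ cell RNA-binding protein, at 15.5 and then 0.824 FPKM, Mitf, and 5 of the 6 introduced factors, Dppa2 among them at 612 and then 92.4. Of 28 epithelial genes 6 were higher and 2 lower on day 4, beside 2.45% and 3.42% of all genes tested, and of 14 germline genes 0 passed the fold either way, with a median of -0.34.

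The later Thy1-SSEA1+ libraries of the same arm, days 8, 11 and 14, were set beside the early gate. Day and gate change together here and cannot be told apart. Cdh1 was 15.1 and 31.8 FPKM in the Thy1+SSEA1+ libraries and 76.1, 109 and 125 in the later ones. Epcam was 15.9 and 57.4 FPKM early and 113, 150 and 175 later. In 17 of 28 epithelial genes both early libraries lay below all 3 later ones, beside 19.2% of protein-coding genes. For the fibroblast list this held in 1 of 33, and 7 of 33 were above all 3, beside 21.3%. Among core pluripotency genes 11 of 19 were below all 3 later libraries.

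Limma called 6 genes higher and 25 lower in the early gate, 0.0417% and 0.174% of 14383, and on protein-coding genes alone 3 and 10, 0.0241% and 0.0802%. Without the day 8 library it called 1227 and 1458, so that these counts rest on that library. The protein-coding genes furthest below the later gate were Esrrb, Enpp3, Esrp1, Ly6d and Tfap2c. Esrrb, a nuclear receptor of the pluripotency network, was 0.146 and 0.524 FPKM early and 12.1, 22.9 and 21.4 later (difference -3.86, SE 0.37, limma adjusted p = 0.0194). Esrp1, the splicing regulator of epithelia, was 0.216 and 0.383 against 9.78, 20.2 and 26.0 (adjusted p = 0.0437, limma). Tfap2c, a transcription factor of trophoblast and germ cells, was 0.440 and 1.42 against 13.4, 26.1 and 18.0 FPKM (adjusted p = 0.0468, limma). Ly6d, a surface protein, was 0 and 0.0682 against 11.9, 11.4 and 13.4 (adjusted p = 0.00643, limma). No early value of these 4 genes reached a later one. Nanog was nearer, at 50.5 FPKM on day 4 against 74.1 to 123 later.

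**Figure D5:**
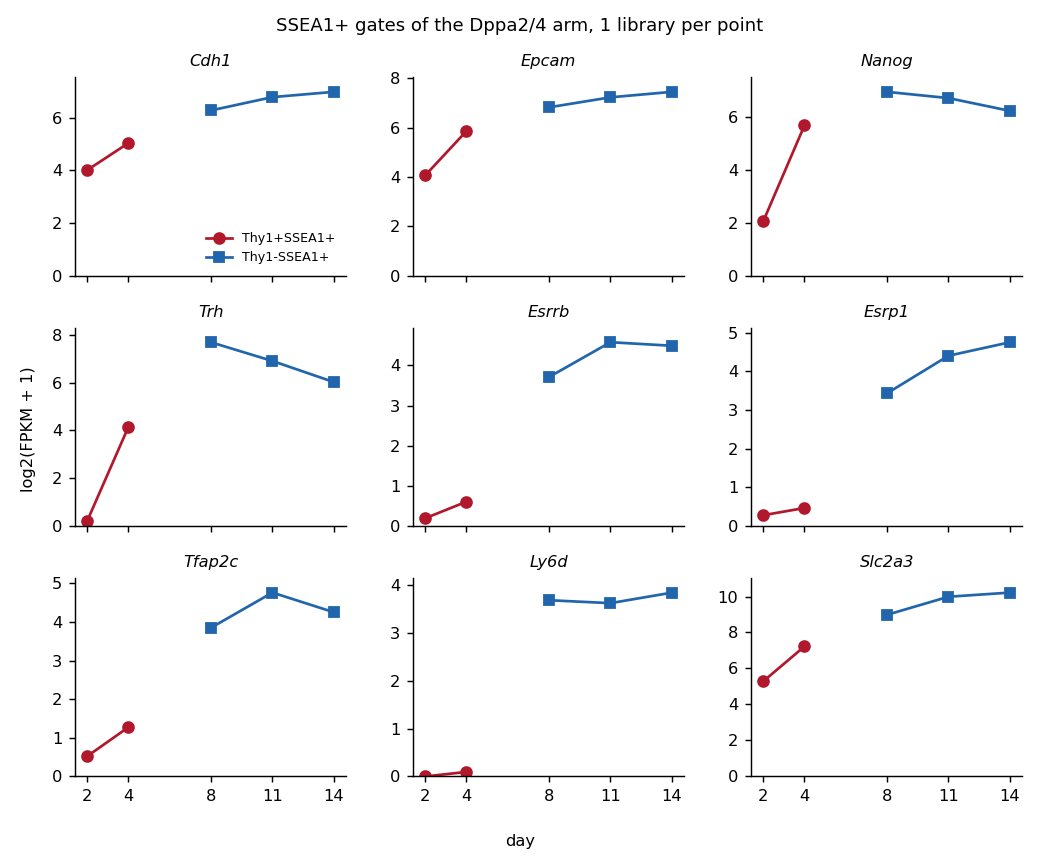
log2(FPKM + 1) of 9 genes in the SSEA1+ gates of the Dppa2/4 arm by day, Thy1+SSEA1+ on days 2 and 4 (red circles) and Thy1-SSEA1+ on days 8, 11 and 14 (blue squares), 1 library per point. Cdh1 and Epcam are present from day 2 and Nanog and Trh are high by day 4, while Esrrb, Esrp1, Tfap2c and Ly6d are at or under 1.42 FPKM before the later gate.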

How the data were processed

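PolyA RNA-seq of sorted mouse fibroblasts was measured as FPKM per gene. The authors deposited 1 FPKM table for the series. Per the submitters' processing notes it was made with TopHat2 and Cuffdiff on mm10, and their versions, the annotation and the library normalization are not given in the sources used here. Of 33 value columns 30 were used, and 3 with no sample of their own were not. No read counts are in that table, so depth was implied from where FPKM times length piles up in 2001 single-transcript genes over 2000 bases, read as 1 fragment, and it carries no interval.

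Of 37973 genes, 32914 identifiers were in GENCODE vM21, which gave biotypes and coordinates. Values were analysed as log2(FPKM + 1), with genes of at least 1 FPKM in at least 2 of the 5 libraries. limma 3.58.1 (R 4.3.3, lmFit and eBayes with a trend) was fitted with day as a block and gate as the term, and p-values were adjusted by Benjamini-Hochberg over all genes tested at 0.05. Later Thy1-SSEA1+ libraries were compared without a block. On simulated data, 100 of 14251 genes were changed at each of 2 sizes, with noise drawn from the fitted spread. The first fit recovered 100% of genes changed by 3 on the log2 scale and 2% of those changed by 1, with 22 false calls beside them. In this single run the false share of the calls was thus above the 0.05 that the adjusted threshold aims at. The simulation cannot check whether that spread holds, because the spread was its input.

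The genes named are the 10 highest and 10 lowest of each set of fold calls, the 5 furthest from the later gate, up to 4 members per list with the largest mean difference, and 12 genes of the sort and the factors. The rule picked mostly RNAs under 200 bases when run on all genes and was rerun on protein-coding genes, a choice made after seeing the data. The limma runs on protein-coding genes alone were not planned either. Members named beside a count of 5 or fewer were also chosen after their values were seen. The members and the 26 lists were chosen with earlier results of these data known. Pseudocount, filters, scaling, fold, floor, prior, block and left-out libraries were varied. Some list members are not reported here by name.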

Additional observations from a re-analysis of the deposited data

Results flagged for a closer look

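For 6 gene lists and 6 named genes the difference between Thy1+SSEA1+ and Thy1-SSEA1- cells had opposite signs on day 2 and day 4, with 1 pair of libraries per day, so the difference between the days was not tested. The list medians on log2(FPKM + 1) were 2.61 on day 2 and -0.085 on day 4 for the introduced factors, 1.38 and -0.032 for endothelial markers and 1.01 and -0.02 for lineage regulators. They were 0.58 and -0.091 for chromatin modifiers, 0.20 and -0.083 for cartilage, bone and fat markers, and 0.18 and -0.054 for the sort antigens and SSEA1 synthesis genes.

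Among single genes, Dppa2 differed by 2.89 on day 2 and -0.26 on day 4, Pou5f1 by 2.77 and -0.43, and Klf4 by 1.13 and -0.38. The fucosyltransferase gene Fut4 differed by 0.56 and -0.093, and the hematopoietic transcription factor gene Gata2 by 0.48 and -0.23. B3gnt2, an N-acetylglucosaminyltransferase that extends the chains carrying SSEA1, differed by 0.21 on day 2 and -2.23 on day 4, where it stood at 3.69 FPKM in Thy1+SSEA1+ and 21.0 in Thy1-SSEA1- cells.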

How the results depend on the processing

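The fit of Thy1+SSEA1+ against Thy1-SSEA1- cells had 1 residual degree of freedom, and its counts moved with nearly every choice. Under either other scaling 26 of 26 list medians moved by no more than the SD between the 2 days. That SD holds the change from day 2 to day 4, which was large for some lists, so it is a wide limit. With a pseudocount of 0.1, 3 moved by more, those of the core pluripotency, 2-cell-like and red cell genes, and 23 did not. Against 21 genes higher and 195 lower, it called 13 and 49 with a pseudocount of 0.1, 0 and 0 with no filter (975 and 1800 at an unadjusted p under 0.05), 0 and 0 with a mean of at least 5 FPKM, 6 and 8 with median-of-ratios scaling, 13 and 40 without a trend, and 13 and 13 with no day block. It called 60 lower after quantile normalization, 0 and 0 with the day 4 library labelled Thy1+SSEA1- included (171 and 860 unadjusted), 2 and 0 with the spread taken from 16 libraries (781 and 1570 unadjusted), 26 and 263 without the day 2 Thy1+SSEA1- library, and 434 and 1149 on protein-coding genes alone. The cause was not tested. The fold rule gave, on day 2, 418 higher and 811 lower at 4-fold and 665 and 1318 with a floor of 20 FPKM. On day 4 it gave 85 and 300, then 134 and 458, and 112 higher on protein-coding genes alone. Against Thy1+SSEA1- cells it gave 61 and 99 at 4-fold, 42 and 134 with the higher floor, 26 and 54 on protein-coding genes and 8 and 3 with limma, and for the day 4 pair with the library labelled Thy1+SSEA1- 1305 and 1961. Against the later gate the counts were 1 and 5 with no filter, 1 and 13 with a mean of at least 5 FPKM and 3 and 10 on protein-coding genes. Leaving out each of the 5 libraries gave 1 to 1227 higher and 7 to 1458 lower: 1 and 7 without day 2 Thy1+SSEA1+, 10 and 14 without day 4 Thy1+SSEA1+, 1227 and 1458 without day 8, and 15 lower without day 11. The median of the introduced factors, 1.29 over both days, was -0.085 without day 2 and 2.606 without day 4. Of 209 named genes 37 lost their call under median-of-ratios scaling, 19 with the other pseudocount and 12 after quantile normalization. The day block pairs gates within a day. No paired analysis was possible because each gate and day has 1 library, where pairing means by replicate number.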
